A study of Mus musculus with 18 samples.

Results

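Blood vascular endothelial cells (BEC), the cells that line blood vessels, were compared between mouse embryos at embryonic day 18.5 (E18.5) and embryonic day 16.5 (E16.5). The comparison used 6 of the 18 arrays of the series, 3 of BEC at E18.5 and 3 of BEC at E16.5, and every gene with its own transcript cluster on the array, 19938 genes in all. The series, whose title concerns an enhancer bound by GATA2 and the identity of lymphatic endothelial cells (LEC), also holds BEC at E14.5 and LEC at all 3 ages, with 3 arrays in each of the 6 groups. Each sample of total RNA was read on 1 Affymetrix array of the Mouse Gene 1.0 ST design, and the replicates of an age came from independent litters. The labels give embryonic tissue, cell type and age for each sample. Strain, genotype, sex and organ are not among the labels, and the way the cells were separated is given only by a citation.

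In late gestation the blood vascular endothelium stops being mainly a growing network and takes on the functions of the vessels of the newborn. Arteries acquire elastic walls and a coat of contractile mural cells, capillaries acquire the surface proteins that handle lipids and solutes, and veins acquire the adhesion molecules that recruit leukocytes. Endothelial cells also sense interferons and other cytokines, to which they respond by displaying antigen-presenting molecules and releasing chemokines.

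The deposited values are log2 signals, so a difference of 1 is a 2-fold difference in signal. A gene was called when limma's moderated test, adjusted by Benjamini-Hochberg over all 19938 genes, gave an adjusted p under 0.05. Rose and fell are used of called genes, and changes are E18.5 minus E16.5. Errors of changes are limma standard errors (SE), and errors of means are standard deviations (SD) over 3 arrays. Probes for olfactory and vomeronasal receptor genes, which are not expected to be read in endothelium, gave a bound for dim signal of 4.62, the 95th percentile of their group means. A gene below that bound in a group has an uncertain fold there.

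The arrays carried the signal of blood endothelium at both ages. The summed signal of 18 pan-endothelial genes lay between 15.04 and 15.12 on the log2 scale at E16.5 and between 15.03 and 15.16 at E18.5, and all 18 genes were above the dim bound. The VE-cadherin gene Cdh5 read 11.93 ± 0.10 (SD, n = 3) at E16.5, then 11.98 ± 0.02 at E18.5. The VEGF receptor gene Kdr read 11.92 ± 0.10 and 12.06 ± 0.05. Prox1, the master regulator of lymphatic fate, averaged 6.03 and 6.04 in BEC against 11.02 and 11.13 in LEC of the same ages.

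Of the 19938 genes, 4714 were called, which is 23.6%. Of these, 2268 rose (11.4% of all genes) and 2446 fell (12.3%). Most of the calls were small, since 91.7% of the called genes changed by under 1. There were 389 genes that changed by at least 1, or 1.95%, of which 196 rose (0.983%) and 193 fell (0.968%). The median change over all genes was 0.09. The arrays of both ages did not overlap, called or not, for 23.3% of genes in the higher direction and 21.1% in the lower, so a lack of overlap alone sets no gene apart. The count of calls was 2495, 2359 or 2835 when the first, second or the third E16.5 array was left out. The balance of higher and lower calls depended on the scaling. After the arrays were shifted to a common median, 1318 genes were higher and 3394 lower.

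The E18.5 arrays had a narrower range of signal. The interquartile range over all transcript clusters was 3.58, 3.64 and 3.54 on the E16.5 arrays, then 3.18, 3.30 and 3.33 on the E18.5 arrays. All 3 E18.5 arrays lay below all 3 E16.5 arrays, by 0.32 on average, and the exact two-sided permutation p of 0.1 is the smallest that 3 against 3 arrays can give. LEC arrays showed the same order, with 3.59 to 3.62 at E16.5, then 3.27 to 3.36 at E18.5. Beside the narrower range, genes with a mean signal under 6 had median changes between 0.20 and 0.26, while those between 6 and 7 and between 7 and 8 had medians of -0.14 and -0.22. The median was 0.00 for genes between 10 and 11. Replicates also spread more at E18.5, with a median SD per gene of 0.17 against 0.12, and pairs of arrays correlated across genes at 0.987 to 0.990 against 0.993 to 0.996. Embryonic age and any difference in the handling of the E18.5 arrays cannot be told apart.

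**Figure D1:**
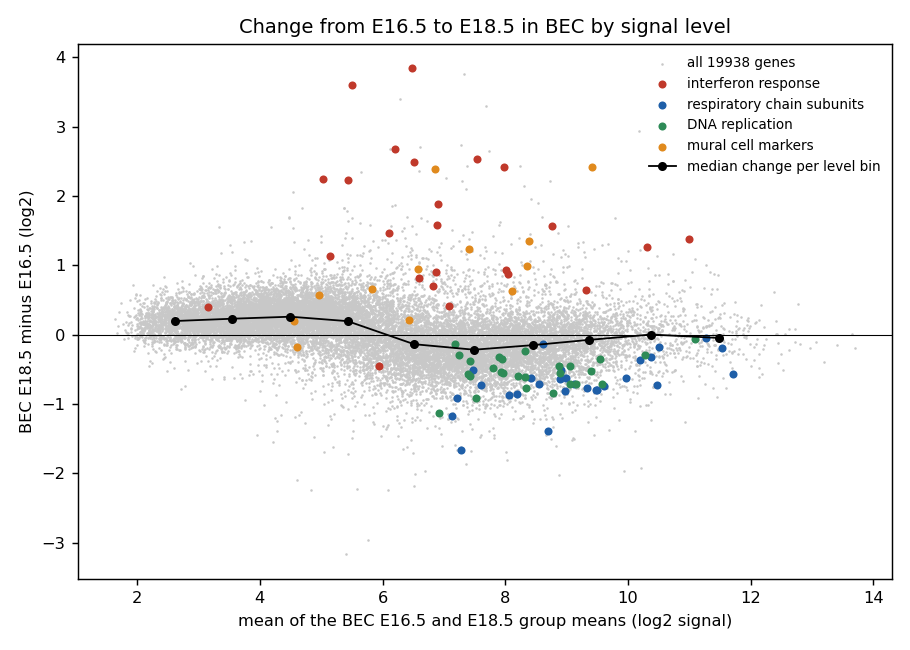
Change of each gene from E16.5 to E18.5 in BEC (vertical axis, log2) against its mean signal over both ages (horizontal axis, log2 signal), with 4 gene lists in colour and the median change per bin of signal as black points. The median is above 0 for dim genes and reaches -0.22 between 7 and 8, while interferon response genes (red) lie up to 3.84 and respiratory chain genes (blue) down to -1.66.

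The 12 genes that rose most among those chosen by size of change were Iigp1, Il6, Ifit1, Car3, Cxcl10, Sele, Ifi203, Sp100, Phf11d, Mx2, Gbp4 and Oasl2. Apart from Il6, Sele and Car3, these are genes that interferons are known to induce. Il6, which encodes the cytokine interleukin 6, read 5.10, 6.12 and 5.12 at E16.5, then 9.05, 9.53 and 9.04 at E18.5. Its change was 3.76 ± 0.26 (adjusted p = 0.000149). The E18.5 arrays were all well above the highest E16.5 array. Sele encodes E-selectin, the endothelial molecule on which leukocytes begin to roll. It read 8.88, 8.58 and 8.67 at E16.5, then 11.53, 11.69 and 11.72 at E18.5, a change of 2.94 ± 0.12 (adjusted p = 1.43e-05), and its replicates were close together at both ages. Car3, a carbonic anhydrase abundant in fat and muscle, was spread widely at E16.5 (5.71, 3.65 and 4.40) and read 7.45, 8.65 and 7.85 at E18.5, a change of 3.40 ± 0.46 (adjusted p = 0.00188). Its E16.5 mean lay below the dim bound.

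The 12 genes that fell most were Hbb-y, Gpr65, Cyp11a1, Ccr8, Rgs18, Cma1, Il3, Rpa3, Hdc, Otulinl, Cpa3 and Crmp1. Hbb-y, an embryonic globin of yolk-sac red cells, read 6.96, 7.02 and 6.96 at E16.5, then 3.11, 4.28 and 4.05 at E18.5, all of the latter below the dim bound. It fell by 3.17 ± 0.25 (adjusted p = 0.000224). Gpr65, a proton-sensing receptor of leukocytes, read 7.16, 7.63 and 6.95 and then 4.88, 4.16 and 3.83, and fell by 2.96 ± 0.26 (adjusted p = 0.000285). Gpr65, Ccr8, Rgs18 and Il3 averaged below the dim bound at E18.5. Crmp1, a cytoskeletal protein of growing axons, read 8.29, 8.32 and 8.30 and then 6.17, 6.63 and 6.49, and fell by 1.87 ± 0.14 (adjusted p = 2e-04). Rpa3, the small subunit of replication protein A, fell from 7.54 ± 0.08 to 5.52 ± 0.48.

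Several of the genes with the largest falls belong to mast cells and other leukocytes. Hdc, which makes histamine, and Cma1 and Cpa3, proteases of mast cell granules, are on a list of 10 mast cell markers. Of these 5 fell and 0 rose, against 12.3% and 11.4% of all genes. The count was 3 without the second or the third E16.5 array. The call of Cpa3 (-1.93 ± 0.59, adjusted p = 0.0415) was lost without any E16.5 array and without the second or the third E18.5 array, with adjusted p between 0.0715 and 0.111, and also at a common interquartile range, after quantile normalization and after cyclic loess. The summed mast cell signal was 12.44 to 12.67 at E16.5, then 12.09, 10.25 and 10.82 on the 3 E18.5 arrays, so the first E18.5 array was close to the earlier age. Fcer1a, Ms4a2 and Mrgprb2 of this list averaged below the dim bound at both ages. Of 11 lymphocyte and leukocyte markers 6 fell and 0 rose, among them Coro1a (-1.66 ± 0.14), Laptm5 (-1.44 ± 0.23) and Rac2 (-1.23 ± 0.19). Their summed signal went from 9.67 to 9.88 at E16.5 to 8.58 to 9.03 at E18.5, and Cd3d, Cd79a and Ncr1 were below the dim bound at both ages. In RNA from a population of cells, fewer cells of a type and less RNA per cell cannot be told apart. The part of these leukocyte signals in the falls of Gpr65, Ccr8, Rgs18, Il3, Cyp11a1 and Otulinl was not tested.

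**Figure D2:**
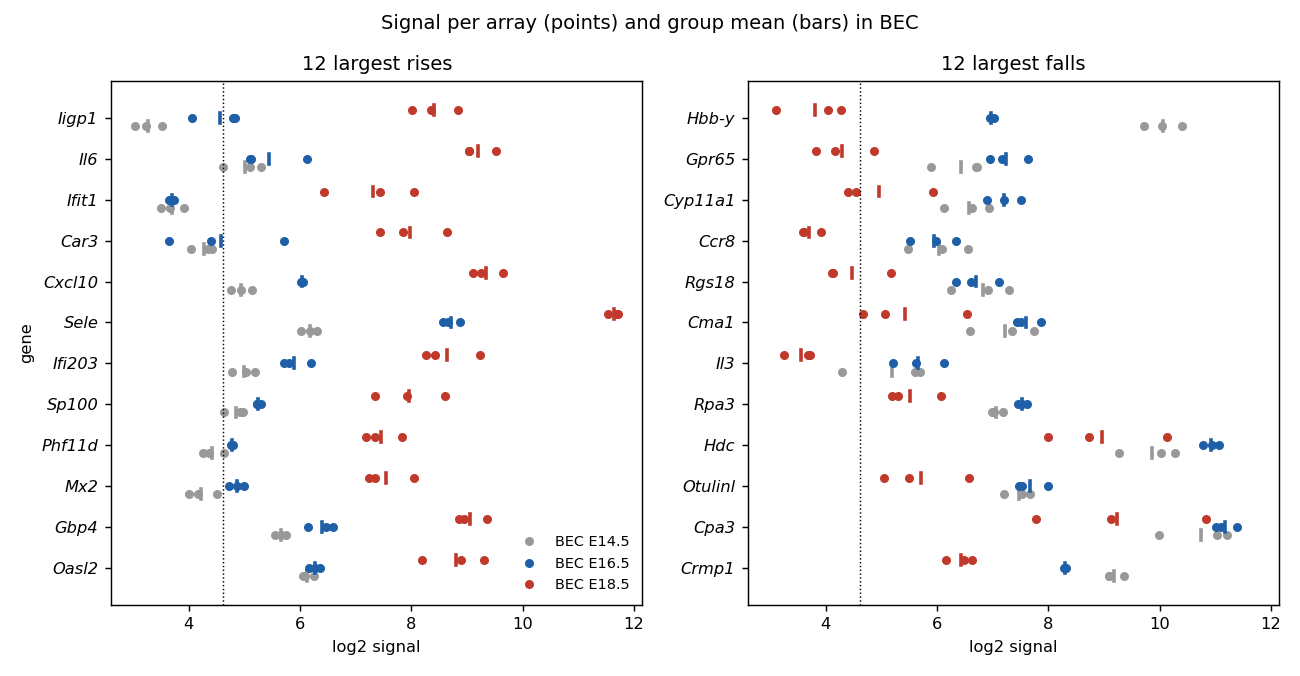
Log2 signal of the 12 genes with the largest rises (left) and the 12 with the largest falls (right) in BEC; each point is 1 array, short bars are group means, colours give the age and the dotted line is the dim bound of 4.62. The E16.5 and E18.5 points of each gene do not overlap, and Cma1, Hdc, Cpa3 and Otulinl have 1 E18.5 array near the E16.5 level.

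Interferon response genes were higher at E18.5. Of their 24 measured members 22 rose and 1 fell, against 11.4% and 12.3% of all genes, and the median change was 1.42 against 0.09. The count of rises was 21 or 22 when any 1 array was left out and under each scaling. Interferons act through JAK kinases and STAT transcription factors to induce antiviral effectors and the regulators that sustain them.

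Among the effectors, Iigp1, a GTPase that attacks the vacuoles of intracellular parasites, read 4.83, 4.80 and 4.07 at E16.5, then 8.02, 8.35 and 8.84 at E18.5. Its change was 3.84 ± 0.25 (adjusted p = 0.000112). Ifit1, which binds viral RNA, read 3.65, 3.72 and 3.73 and then 6.44, 7.43 and 8.05, a change of 3.60 ± 0.32 (adjusted p = 0.000317). Both genes, and Gbp5, averaged below the dim bound at E16.5, so their folds are uncertain in size, and they read above it on all E18.5 arrays. Gbp3 and Gbp5, guanylate-binding proteins, rose by 2.42 ± 0.20 and 2.24 ± 0.26, and Mx2 and Oasl2 rose by 2.67 ± 0.20 and 2.53 ± 0.24. Usp18, which removes the ubiquitin-like protein ISG15, rose by 2.50 ± 0.26. Signal of the Gbp, Ifit and Ifi200 families is uncertain per gene, because probes of 1 member may bind a near-identical one.

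Among the regulators, Irf7, which amplifies type I interferon output, read 6.20, 5.73 and 5.94 and then 7.19, 8.16 and 8.16, a rise of 1.88 ± 0.25. Irf1 rose by 1.26 ± 0.14 from a high level, 9.69 ± 0.25 to 10.95 ± 0.08. Stat2, a subunit of the factor that type I interferons activate, rose by 0.93 ± 0.21. Irf8, a factor of myeloid cells, was lower by -0.45 ± 0.13 (adjusted p = 0.034), a call lost without the first or second E16.5 array and without the first or the third E18.5 array. Mx1 stayed below the dim bound at both ages (2.95 and 3.35, adjusted p = 0.153). Among the E18.5 arrays the first read lowest for Iigp1, Ifit1, Sp100, Usp18, Oasl2, Gbp3, Gbp5, Irf7 and Stat2, and it was still above every E16.5 array for each of them.

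The promoters of several members hold the sequence that interferon-activated factors bind, so 3 of them are shown. The windows are the 250 bases before the start of the gene, 5′ to 3′ on the strand of the gene, from RefSeq on GRCm38.p6. The motif searched on both strands was GAAA, any 2 bases and GAAA, and capitals mark its matches, which here lie on the other strand and read TTTC, 2 bases and TTTC. The Ifit1 window is chr19:34640639-34640888 on the plus strand, that of Gbp3 is chr3:142559794-142560043 on the plus strand and that of Gbp5 is chr3:142496684-142496933 on the plus strand.
Ifit1: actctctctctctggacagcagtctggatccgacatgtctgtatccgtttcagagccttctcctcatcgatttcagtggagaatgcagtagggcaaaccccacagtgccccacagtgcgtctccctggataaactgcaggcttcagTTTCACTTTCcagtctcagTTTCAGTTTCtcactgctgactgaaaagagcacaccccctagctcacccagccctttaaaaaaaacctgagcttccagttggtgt
Gbp3: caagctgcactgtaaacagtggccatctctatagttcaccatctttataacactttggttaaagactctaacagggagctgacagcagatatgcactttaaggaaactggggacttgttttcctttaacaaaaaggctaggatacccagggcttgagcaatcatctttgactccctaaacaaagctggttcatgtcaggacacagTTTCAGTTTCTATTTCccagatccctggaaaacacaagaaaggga
Gbp5: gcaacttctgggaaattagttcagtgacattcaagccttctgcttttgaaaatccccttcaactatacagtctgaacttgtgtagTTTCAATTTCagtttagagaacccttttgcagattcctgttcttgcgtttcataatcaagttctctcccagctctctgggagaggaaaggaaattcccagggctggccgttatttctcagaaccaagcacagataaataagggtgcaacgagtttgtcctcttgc
For counting, longer windows were used, which also take in bases after the start of the gene. The motif was present in 10 of the 20 members with a longer window, and in 3.99% of the 27025 genes with one. A match is a description of the letters and not a bound site.

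**Figure D3:**
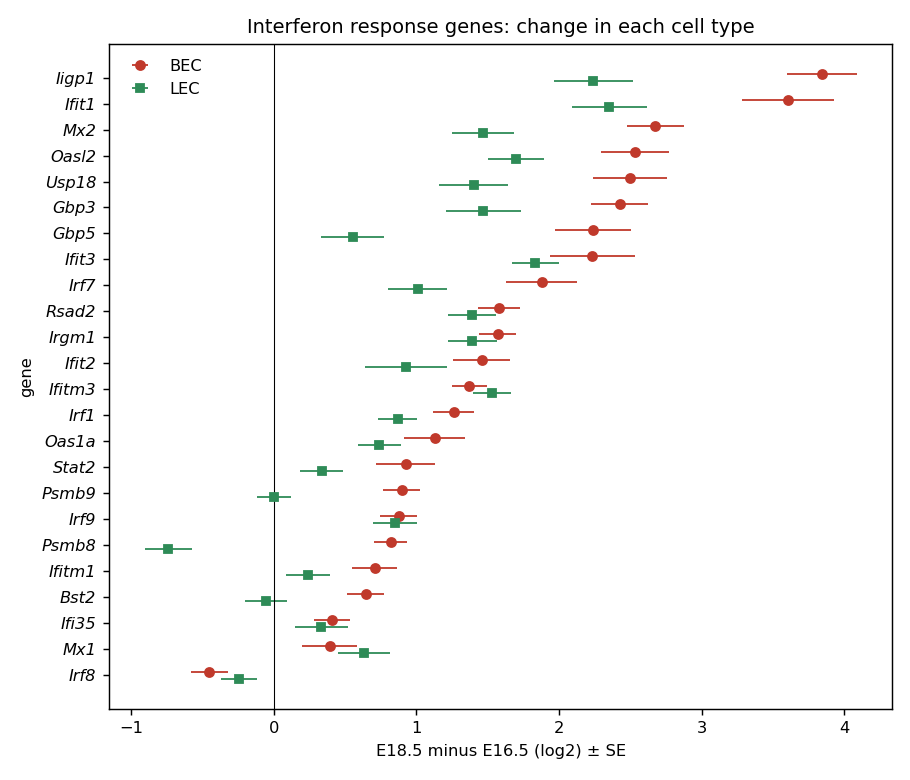
Change from E16.5 to E18.5 (log2, with SE) of the 24 measured interferon response genes in BEC (red circles) and LEC (green squares). In BEC 22 rose, led by Iigp1 at 3.84, and in LEC 16 rose, led by Ifit1 at 2.35, while Psmb8 was higher in BEC (0.82) and lower in LEC (-0.74).

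Genes of antigen presentation by MHC class I, which displays peptides from inside the cell, were also higher. Of 16 measured members 10 rose and 0 fell, against 11.4% and 12.3% of all genes, with a median of 0.55. The count was 7 to 10 when 1 array was left out. Tap1, the peptide transporter, read 6.44, 6.30 and 6.14 at E16.5, then 7.16, 7.83 and 7.85 at E18.5, a rise of 1.32 ± 0.19. Nlrc5, the transactivator of the class I genes, rose by 0.98 ± 0.12. The immunoproteasome subunits Psmb8 and Psmb9 rose by 0.82 ± 0.12 and 0.90 ± 0.13, and B2m, the light chain, rose by 0.66 ± 0.13 from 11.12. H2-Q4 rose by 1.02 ± 0.14, although probes of the H2 genes may bind more than 1 of them. In LEC over the same days 2 members of this list rose and 2 fell. The difference between the cell types was called for 4 of the 16 members, each of them higher in BEC.

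Of 25 chemokines, cytokines and their receptors 13 rose and 0 fell, against 11.4% and 12.3% of all genes. Without the first E16.5 array 8 rose. Cxcl10, an interferon-induced attractant of T cells, read 6.05, 6.03 and 6.04 at E16.5, then 9.25, 9.65 and 9.12 at E18.5. It rose by 3.30 ± 0.15 (adjusted p = 1.43e-05). Cxcl1, which attracts neutrophils, rose by 1.20 ± 0.16, and Ccl2, which attracts monocytes, rose by 0.93 ± 0.13. Tnf and Il1b, the classical upstream inflammatory cytokines, changed by 0.10 and 0.13 and were not called. Il1b averaged at or below the dim bound at both ages, so a change in it could not be read. Of the 25 genes, 8 averaged at or below that bound at E16.5 and 5 at E18.5. The macrophage markers, a possible other source of such transcripts, held 3 rises and 1 fall among 16, and their summed signal went from 9.35 to 9.48 at E16.5 to 9.64 to 9.98 at E18.5. Among all genes, 16.8% rose between a mean signal of 4 and 5 and 18.5% between 5 and 6. Adgre1, Cd163, C1qc, Itgam and Timd4 averaged below the dim bound at both ages. The part of macrophages in these changes was not tested.

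Leukocyte adhesion genes included 9 rises and 1 fall among 16, against 11.4% and 12.3% of all genes. The rises were 8 or 9 when 1 array was left out. Besides Sele, the genes for the counter-receptors Icam1 and Vcam1 rose by 0.95 ± 0.14 and 0.84 ± 0.13. Ackr1, a chemokine-presenting receptor of venules, read 3.99, 4.08 and 4.21 and then 5.10, 5.63 and 5.26, so it moved from below to above the dim bound (1.24 ± 0.15). Aoc3, the vascular adhesion protein, rose by 1.19 ± 0.13. Madcam1, the addressin of gut and developing lymph node venules, went the other way. It read 7.97, 8.32 and 8.10 at E16.5, then 6.67, 6.95 and 6.71 at E18.5, and fell by 1.35 ± 0.14 (adjusted p = 0.000481).

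Complement and acute phase genes, which act in plasma defence, held 13 rises and 1 fall among 22, against 11.4% and 12.3% of all genes. There were 8 rises without the second or the third E16.5 array. Osmr, the receptor of oncostatin M, rose by 1.58 ± 0.14, complement factor gene Cfb by 1.56 ± 0.21 and the complement inhibitor gene Serping1 by 1.25 ± 0.11. The 3 E18.5 arrays of Serping1 were nearly equal at 7.07, 7.09 and 7.12, against 5.88, 5.69 and 5.94 before. Lrg1, a secreted glycoprotein of venules and inflamed vessels, rose by 1.12 ± 0.24.

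Immediate early genes, which cells switch on within minutes of a stimulus and also during tissue dissociation, rose in 15 of 22 cases, with 0 falls. Over all genes 11.4% rose and 12.3% fell. The median of the list was 0.70, and its count of rises was 11 to 15 when 1 array was left out. Fosb read 10.30, 10.26 and 9.89 and then 11.30, 11.34 and 11.29, a rise of 1.16 ± 0.13, and Fos, Atf3 and Jun rose by 1.09 ± 0.15, 1.13 ± 0.13 and 0.91 ± 0.11. Levels were high at both ages, since Fos averaged 10.55 at E16.5, then 11.64 at E18.5. Myc and Junb changed by 0.00 and -0.01 and were not called. The duration of tissue dissociation is not among the labels, and its part in these changes was not tested.

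Of 23 glucocorticoid-responsive genes 9 rose and 0 fell, against 11.4% and 12.3% of all genes, and the median was 0.40. The rises were 7 to 11 when 1 array was left out and 7 at a common median. In LEC over the same days 3 of these genes rose and 4 fell, with a median of 0.13. The fetal surge of corticosteroids before birth is known to act through these genes in many organs. Its part in these changes was not tested. Errfi1, an inhibitor of EGF receptor signalling, rose by 1.24 ± 0.13, Zbtb16 by 1.08 ± 0.15, Klf9 by 0.81 ± 0.15 and Nr3c1, the receptor itself, by 0.62 ± 0.12. Mt1, a metallothionein that metals also induce and whose probes may bind Mt2, rose by 1.21 ± 0.18. Of the most widely used reporters of the hormone, Tsc22d3 changed by 0.09 and Fkbp5 by -0.34 (adjusted p = 0.0673), and neither was called. Fkbp5 was called lower, against the direction of the list, in 6 alternatives, among them a common median and the fit of all 18 arrays. Of 18 flow-responsive genes 4 rose and 2 fell, against 11.4% and 12.3% of all genes. Their median was 0.18, and 3 were higher at a common median. Klf4 and Klf2, which shear stress induces, rose by 0.98 ± 0.16 and 0.58 ± 0.12.

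The calls among pan-endothelial genes depended on the scaling. Of 18 members 2 were called higher and 1 lower, shares at or below those over all genes, against 7 and 0 at a common interquartile range and 0 and 3 at a common median. Their median of -0.10 turned to 0.26 when the arrays were scaled to a common interquartile range and to 0.01 after cyclic loess. The calls of Tek (0.39), Erg (0.37) and Egfl7 (-0.56) were each lost without the first or the third E16.5 array, with adjusted p between 0.0638 and 0.122. The call of Erg was lost without any single array. That of Tek was also lost without the second E16.5 array and without the first or the third E18.5 array. Both were lost at a common median, and the call of Egfl7 at a common interquartile range. Pecam1 read 11.57 ± 0.11 and 11.88 ± 0.08, which was not called (adjusted p = 0.0784).

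Venous and arterial genes were counted separately. Of 12 venous genes 6 rose and 0 fell, against 11.4% and 12.3% of all genes. Their median was 0.56, and the count of rises was 6 or 7 when 1 array was left out. The rises were those of Ackr1, Lrg1, Icam1, Vcam1, Vwf (0.75 ± 0.16) and Tshz2 (0.72 ± 0.12), of which Ackr1, Icam1, Vcam1 and Vwf are also on the adhesion list. The fate regulator Nr2f2 read 9.19 ± 0.05 and 9.49 ± 0.05 (adjusted p = 0.0675), which was called higher in 7 alternatives, among them cyclic loess, quantile normalization and a common interquartile range, and the receptor Ephb4 10.01 ± 0.11 and 9.87 ± 0.11 (adjusted p = 0.382). Of 22 arterial genes 6 rose and 2 fell, the falls near the share over all genes. Cxcl12, the chemokine of arterial endothelium, rose by 0.75 ± 0.13, and the Notch ligand Jag1 by 0.62 ± 0.12. The gap junction gene Gja4 fell by 0.74 ± 0.11, with 8.88, 8.72 and 8.67 at E16.5, then 8.06, 7.95 and 8.03 at E18.5. Efnb2 and Dll4, the ligands by which arteries are identified, changed by -0.04 and -0.05 and were not called.

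Among 19 capillary genes 7 rose and 2 fell, against 11.4% and 12.3% of all genes. The rises were 4 without the first or the second E16.5 array, and at a common interquartile range 11 were higher and 0 lower. Cd300lg, a receptor of capillary endothelium, read 8.27, 8.15 and 8.30 and then 9.80 ± 0.29 (SD, n = 3), with its lowest E18.5 array at 9.47. It rose by 1.56 ± 0.15 (adjusted p = 0.000431). Timp4, an inhibitor of matrix metalloproteases, rose by 1.36 ± 0.15, lipoprotein lipase gene Lpl by 0.73 ± 0.12 and the water channel gene Aqp1 by 0.61 ± 0.12 from a level of 12.07. The Aqp1 call was lost with all 18 arrays in the fit (adjusted p = 0.127). Fabp4, a fatty acid chaperone of capillaries, read 11.51 ± 0.11 and 11.51 ± 0.05. From E14.5 to E16.5 it had risen by 2.56 from 8.95 (adjusted p = 2.4e-05). The 2 steps share the E16.5 arrays, so their values are given side by side and were not compared.

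Of 22 tip cell genes 3 rose and 4 fell, shares near those over all genes, with 1 fall without the first E16.5 array. The split depended on the scaling, with 7 higher and 1 lower at a common interquartile range and 2 higher and 5 lower at a common median. Esm1, a marker of sprouting tips, fell by 0.71 ± 0.12 (8.31, 8.39 and 8.39, then 7.77, 7.46 and 7.73). Apln, a peptide of tip cells, was lower by -0.77 ± 0.18, a call lost without the first E16.5 array (adjusted p = 0.0535) and under scaling to a common interquartile range. Angpt2, which destabilises vessels and opposes Angpt1 on the Tek receptor, rose by 0.86 ± 0.13. Of 18 genes of the core Notch pathway 2 rose and 2 fell, shares near those over all genes, and 4 were lower at a common median. Notch3 (1.23 ± 0.14) and Jag1 rose, and the glycosyltransferase gene Mfng fell by 0.75 ± 0.12. The call of Lfng (-0.64) was lost without the first or the third E16.5 array. Notch1 read 10.23 and 10.27.

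In the BMP and TGF-beta pathway the ligand genes Tgfb3 and Bmp6 rose by 1.10 ± 0.11 and 0.95 ± 0.19. The target genes Id1 and Id3, inhibitors of basic helix-loop-helix factors, fell by 0.90 ± 0.18 and 1.18 ± 0.12. Id3 read 8.53, 8.46 and 8.26 at E16.5, then 7.26, 7.31 and 7.15 at E18.5, with no overlap. In the canonical Wnt pathway, which builds the barrier of brain capillaries, 5 of 18 genes rose and 0 fell, against 11.4% and 12.3% of all genes. There were 3 rises without the first E16.5 array and 8 at a common interquartile range. The Wnt effector and target genes Lef1, Axin2 and Apcdd1 rose by 0.90 ± 0.17, 0.77 ± 0.12 and 0.71 ± 0.13.

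Genes that set vascular tone included 7 rises and 3 falls among 22, against 11.4% and 12.3% of all genes. There were 4 rises without the second E16.5 array and 1 fall without the third. Ace, the angiotensin-converting enzyme of endothelial surfaces, read 6.77, 6.48 and 6.55 and then 7.74, 8.10 and 8.25, a rise of 1.43 ± 0.15 (adjusted p = 0.000679). Agtr1a, the angiotensin receptor gene, which mural cells also express, rose by 1.70 ± 0.27, with 5.46, 5.77 and 5.40 and then 6.67, 7.14 and 7.92. The bradykinin receptor gene Bdkrb2 rose by 1.01 ± 0.17 and the guanylate cyclase gene Gucy1a1 by 0.94 ± 0.14. Nos3, the endothelial nitric oxide synthase, read 8.81 ± 0.15 and 8.74 ± 0.14, and the endothelin gene Edn1 read 8.63 ± 0.29 and 8.75 ± 0.38. Neither was called.

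Nutrient and drug transporters split, with 5 rises and 5 falls among 22, against 11.4% and 12.3% of all genes. There were 3 rises without the second or the third E16.5 array, and 3 falls without any 1 E16.5 array or the first E18.5 array. The efflux pump genes Abcb1a and Abcc4 rose by 0.65 ± 0.12 and 0.69 ± 0.13. The amino acid carrier genes Slc7a5 and Slc38a3 fell by 1.45 ± 0.21 and 1.02 ± 0.14, and the thyroid hormone carrier gene Slco1c1 fell by 0.90 ± 0.15. Slc7a5 read 9.41, 9.39 and 9.36 at E16.5, then 8.49, 7.68 and 7.64 at E18.5. Slc2a1, the glucose carrier of the blood-brain barrier, read 10.75 ± 0.08 and 10.50 ± 0.29 and was not called. At junctions, Jam2 rose by 0.76 ± 0.13 and the cingulin-like gene Cgnl1 fell by 0.92 ± 0.11, while Cdh5 and Cldn5 (11.11 and 10.78) were not called.

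Markers of mural cells, the pericytes and smooth muscle cells around vessels, were higher at E18.5. Of 12 mural markers 9 rose and 0 fell, against 11.4% and 12.3% of all genes. Their median was 0.80, and 8 or 9 rose when 1 array was left out. Acta2, smooth muscle actin, read 8.10, 8.46 and 8.03 and then 10.62 ± 0.38 (SD, n = 3), with its lowest E18.5 array at 10.25, a rise of 2.42 ± 0.19 (adjusted p = 0.000224). Myh11, the smooth muscle myosin heavy chain, read 5.81, 5.59 and 5.56 and then 7.82, 8.10 and 8.21, a rise of 2.38 ± 0.14 (adjusted p = 0.000108). Rgs5 and Pdgfrb, markers of pericytes, rose by 1.35 ± 0.15 and 0.99 ± 0.11. The summed mural signal went from 10.35 to 10.55 at E16.5 to 11.77 to 12.09 at E18.5, while the summed endothelial signal did not separate the ages. In LEC the mural sum was 9.33 to 9.41 and then 9.14 to 9.64. Cnn1 averaged below the dim bound at E16.5 and Higd1b at E18.5.

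The elastic fibre gene Eln, which smooth muscle as well as endothelium expresses, read 7.68, 7.08 and 7.59 and then 9.19, 9.41 and 9.61. It rose by 1.95 ± 0.18 (adjusted p = 0.00032). Its partners Fbln5 and Fbln2 rose by 1.05 ± 0.16 and 1.11 ± 0.17, and the proteoglycan gene Vcan by 0.94 ± 0.12. In all 11 of 28 interstitial matrix genes rose and 3 fell, against 11.4% and 12.3% of all genes. There were 6 rises without the first or the third E16.5 array or the third E18.5 array and 7 at a common median. The falls were those of Lum (-1.30 ± 0.28), Fbln1 (-0.95 ± 0.14) and Emilin1 (-0.94 ± 0.14). The fibrillar collagen genes Col1a1 and Col3a1 changed by -0.35 and -0.07 and were not called. Of 19 matrix proteases and inhibitors 9 rose and 1 fell, with 5 rises without the first or the second E16.5 array. Adamts1 and Adamts4, which cut proteoglycans, rose by 1.00 ± 0.12 and 1.00 ± 0.15. The part of mural cell RNA in the rises of Eln, Notch3, Agtr1a and the other wall genes was not tested.

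**Figure D4:**
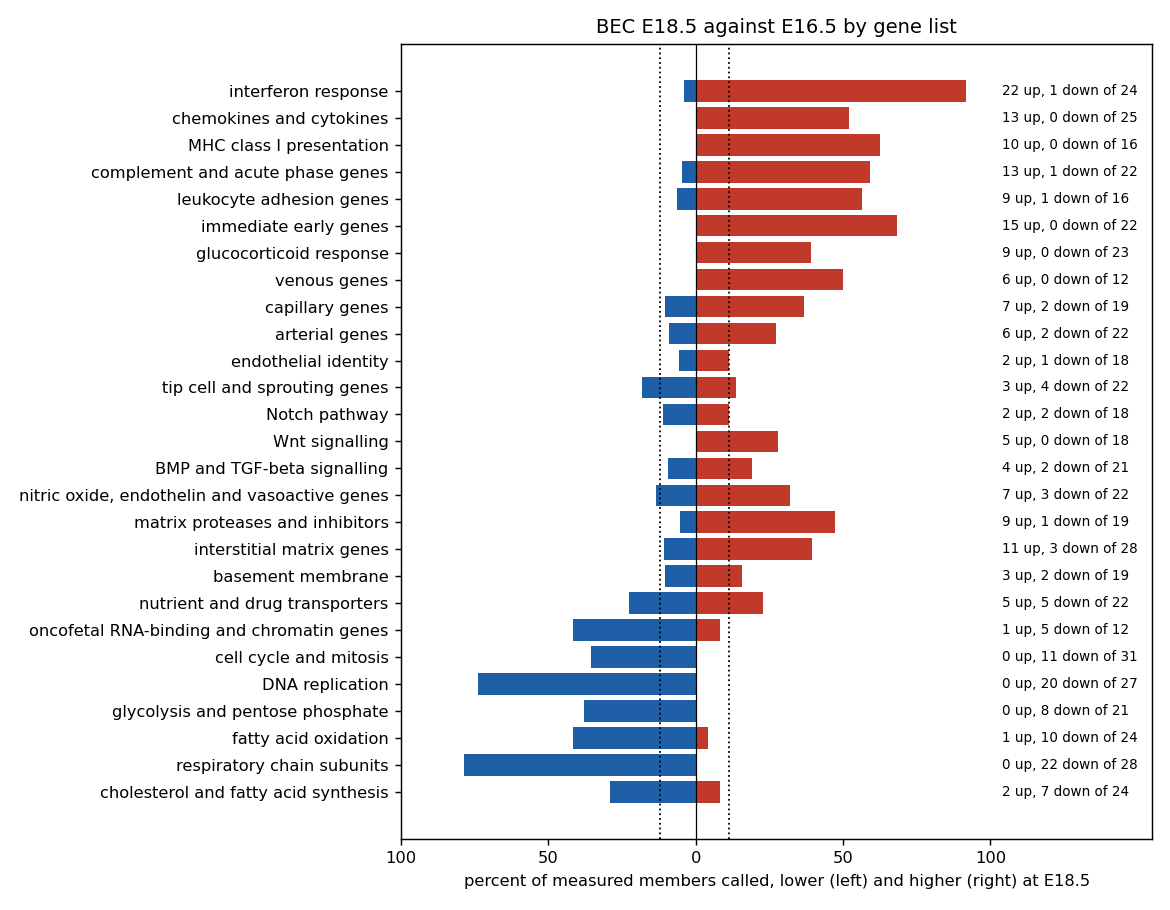
Share of the measured members of each of 27 gene lists that was called lower (blue, left) or higher (red, right) at E18.5 than at E16.5 in BEC, in percent of measured members, with counts at the right; dotted lines give the share over all genes, 12.3% lower and 11.4% higher. Interferon response genes have the longest bar to the right (22 of 24) and respiratory chain subunits the longest to the left (22 of 28). The share over all genes differs with signal level, and 27.7% were lower between a mean signal of 7 and 8.

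Genes of DNA replication fell. Of 27 members 20 fell and 0 rose, against 12.3% of all genes, and their median was -0.54. The count was 11 without the first E16.5 array, 12 after scaling to a common interquartile range and 13 after cyclic loess. Mcm5, a subunit of the replicative helicase, read 9.26, 9.19 and 9.15 at E16.5, then 8.21, 8.48 and 8.38 at E18.5, and fell by 0.84 ± 0.12 (adjusted p = 0.00197). Mcm6, another helicase subunit, fell by 0.71 ± 0.11, the clamp loader gene Rfc3 by 0.91 ± 0.14 and Gins1, which activates the helicase, by 1.12 ± 0.14. Pcna, the sliding clamp, read 11.13 ± 0.12 and 11.06 ± 0.13 and was not called.

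The promoter windows of Mcm5 and Mcm6 are shown because the E2F factors that drive S phase bind the motif TTTGGCGC, which was searched on both strands and is marked in capitals (GCGCCAAA is the same motif on the other strand). They are RefSeq windows of 250 bases before the gene start on GRCm38.p6, 5′ to 3′, at chr8:75109259-75109508 on the plus strand for Mcm5 and chr1:128359706-128359955 on the minus strand for Mcm6.
Mcm5: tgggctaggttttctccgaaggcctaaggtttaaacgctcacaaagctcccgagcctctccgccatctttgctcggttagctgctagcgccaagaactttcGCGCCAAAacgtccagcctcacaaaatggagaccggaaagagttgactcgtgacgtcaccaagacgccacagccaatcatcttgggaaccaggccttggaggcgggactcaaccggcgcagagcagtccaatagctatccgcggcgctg
Mcm6: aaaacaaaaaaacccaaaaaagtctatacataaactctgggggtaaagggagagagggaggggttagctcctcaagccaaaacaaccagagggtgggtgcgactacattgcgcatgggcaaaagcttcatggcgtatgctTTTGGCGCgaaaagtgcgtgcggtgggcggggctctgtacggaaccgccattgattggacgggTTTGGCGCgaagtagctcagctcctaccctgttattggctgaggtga
For counting, the longer windows that reach past the start of the gene were used. The motif stood in 6 of the 23 replication genes with a window (Cdt1, Dnmt1, Mcm3, Mcm5, Mcm6 and Pola1) and in 0.585% of the 27025 genes with one. All 6 were called lower, as were 17 of the 23 genes with a window.

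Cell cycle genes were lower in part. Of 31 cell cycle members 11 fell and 0 rose, against 12.3% and 11.4% of all genes. Their median was -0.29, and the count of falls was 6 after scaling to a common interquartile range. The share of falls over all genes differed with signal level, and was 27.7% between a mean signal of 7 and 8. The part of signal level in the cell cycle falls was not tested. Cdk1, the mitotic kinase, read 9.54, 9.71 and 9.53 and then 8.58, 8.81 and 8.47, and fell by 0.97 ± 0.13. Cdc20, Birc5 and the S phase regulator gene E2f1 fell by 0.93 ± 0.12, 0.89 ± 0.18 and 0.71 ± 0.11. The proliferation markers Mki67 (10.07 ± 0.04 and 10.14 ± 0.05) and Top2a (10.41 ± 0.10 and 10.35 ± 0.04) were not called, although Mki67 was called higher at a common interquartile range (0.41, adjusted p = 0.0342). The same longer windows were searched for the letters TTTGAA, the core of a motif of late cell cycle promoters. These letters stood in 17 of 24 members with a window and in 20.2% of all genes with one. They stood in 5 of the 10 members with a window that were called, and TTTGGCGC in 0 of the 24.

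Growth regulators of the embryo changed in both directions. Igf2bp1, a fetal RNA-binding protein that stabilises growth-promoting messages, read 8.47, 8.47 and 8.37 and then 6.96, 7.12 and 7.06, and fell by 1.39 ± 0.11 (adjusted p = 0.000224). On its list of oncofetal genes 5 of 12 fell and 1 rose, against 12.3% and 11.4% of all genes. There were 2 falls without the first or the third E16.5 array or the third E18.5 array and 2 after quantile normalization. Igfbp2 and Igfbp5, which bind insulin-like growth factors, moved in opposite directions. Igfbp2 read 7.09, 7.37 and 7.15 and then 5.44, 5.63 and 5.69, and fell by 1.62 ± 0.13, and Igfbp5 read 6.43, 6.32 and 6.39 and then 7.89 ± 0.21 (SD, n = 3), a rise of 1.51 ± 0.13. The groups did not overlap for either gene. Igf2 itself, at 12.14 ± 0.03 and 11.96 ± 0.07, was not called. Meg3, an imprinted long RNA, rose by 0.85 ± 0.13. The imprinted gene Peg10 was lower by -0.60 ± 0.11, a call lost after scaling to a common interquartile range.

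Nuclear-encoded subunits of the mitochondrial respiratory chain fell in 22 of 28 cases, with 0 rises and a median of -0.71. Over all genes 12.3% fell, and 27.7% fell between a mean signal of 7 and 8. The count of respiratory chain falls was 18 to 23 when 1 array was left out and 13 after scaling to a common interquartile range. Ndufa1, of complex I, read 8.15, 8.21 and 7.99 at E16.5, then 6.08, 6.82 and 6.46 at E18.5, and fell by 1.66 ± 0.18 (adjusted p = 0.000684). Cox7b of complex IV fell by 1.38 ± 0.16, Uqcrq of complex III by 1.17 ± 0.15 and Sdhb of complex II by 0.87 ± 0.13. Atp5a1 and Sdha changed by -0.19 and -0.36 and were not called. Short genes fell more in general. Among genes with a mean signal above 7, those that span up to 5000, 10000 and 20000 bases of the genome had median changes of -0.23, -0.29 and -0.24, and those that span over 80000 bases had -0.03. The median span of the 28 respiratory genes was 7296 bases, and the part of gene length in their fall was not tested.

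Other metabolic genes were lower more often than higher, as were genes of middling signal in general. Over all genes 12.3% fell and 11.4% rose, but between a mean signal of 7 and 8 the shares were 27.7% and 5.6%. The part of signal level in the falls below was not tested. Of 21 glycolysis and pentose phosphate genes 8 fell and 0 rose, with 5 falls without the first or second E16.5 array. The pentose phosphate enzymes Tkt and Taldo1 fell by 1.22 ± 0.13 and 1.21 ± 0.13, and the serine synthesis gene Psat1 fell by 0.84 ± 0.11. Of 24 fatty acid oxidation genes 10 fell and 1 rose, with 5 falls without the second E16.5 array, 5 after cyclic loess and 5 after scaling to a common interquartile range. Echs1 and Acads fell by 0.83 ± 0.14 and 0.80 ± 0.12. In sterol and fatty acid synthesis 7 of 24 fell and 2 rose, with 2 falls without the second E16.5 array and 4 after quantile normalization or cyclic loess. In LEC over the same days 8 of these 24 rose and 4 fell. Sqle, the squalene epoxidase, fell by 0.89 ± 0.11, and Scd1, which desaturates fatty acids and is abundant in fat, rose by 1.78 ± 0.34 from a level below the dim bound.

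The summed signals of several lists for cells outside the vessel wall were higher at E18.5 without overlap. This held also for lists near the dim bound, as the neuron sum went from 7.90 to 8.07 at E16.5 to 8.22 to 8.34 at E18.5, the skeletal muscle sum from 8.52 to 8.68 to 8.77 to 8.85, and the neutrophil sum from 7.42 to 7.54 to 7.67 to 7.86. Over all genes 11.4% rose and 12.3% fell, and 16.8% rose between a mean signal of 4 and 5. Of 14 keratinocyte and epithelial markers 10 rose and 0 fell, and 9 to 11 rose when 1 array was left out. Krt5, a keratin of the basal epidermis, read 6.21, 5.65 and 5.85 and then 8.33, 7.62 and 8.54, a rise of 2.26 ± 0.23. The summed signal of this list was 8.67 to 8.98 at E16.5, then 9.64 to 10.22 at E18.5, and in LEC it was 9.04 to 10.11 and 11.22 to 11.95. Of 9 adipocyte markers 4 rose and 0 fell, among them Car3 and Lipe (0.92 ± 0.16), and the summed signal went from 7.79 to 8.24 at E16.5 to 8.93 to 9.58 at E18.5. Adipoq, the defining adipokine, averaged below the dim bound at both ages (3.24 and 4.33), as did Lep and Ucp1. The part of adipocytes in the rises of Car3 and Scd1, and of epithelium in any rise, was not tested.

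Lymphatic and erythroid signals were lower. Of 12 lymphatic markers 5 fell and 1 rose, against 12.3% and 11.4% of all genes. There were 3 falls without any 1 of the E16.5 arrays and 3 after cyclic loess or at a common interquartile range. The summed lymphatic signal went from 11.36 to 11.37 to 10.89 to 10.95, against 14.73 to 14.98 in LEC at E18.5. Mmrn1, a multimerin of lymphatic endothelium, read 7.77, 8.26 and 7.95 and then 7.02, 6.19 and 6.61, and fell by 1.38 ± 0.21, and Flt4, the VEGFC receptor gene, fell by 0.84 ± 0.13. Gata2, the transcription factor in the title of the series, read 8.56, 8.76 and 8.60 in BEC at E16.5, then 7.74 ± 0.26 (SD, n = 3) at E18.5, with its highest E18.5 array at 8.02, and fell by 0.90 ± 0.15 (adjusted p = 0.00391). It was also lower by 1.30 in LEC on the later day, at 10.97 and 9.66. The mast cell signal was also lower in BEC at E18.5, and its part in the fall of Gata2 was not tested. Of 8 erythroid markers 2 fell and 0 rose, and their summed signal went from 9.51 to 9.53 to 8.94 to 9.21.

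**Figure D5:**
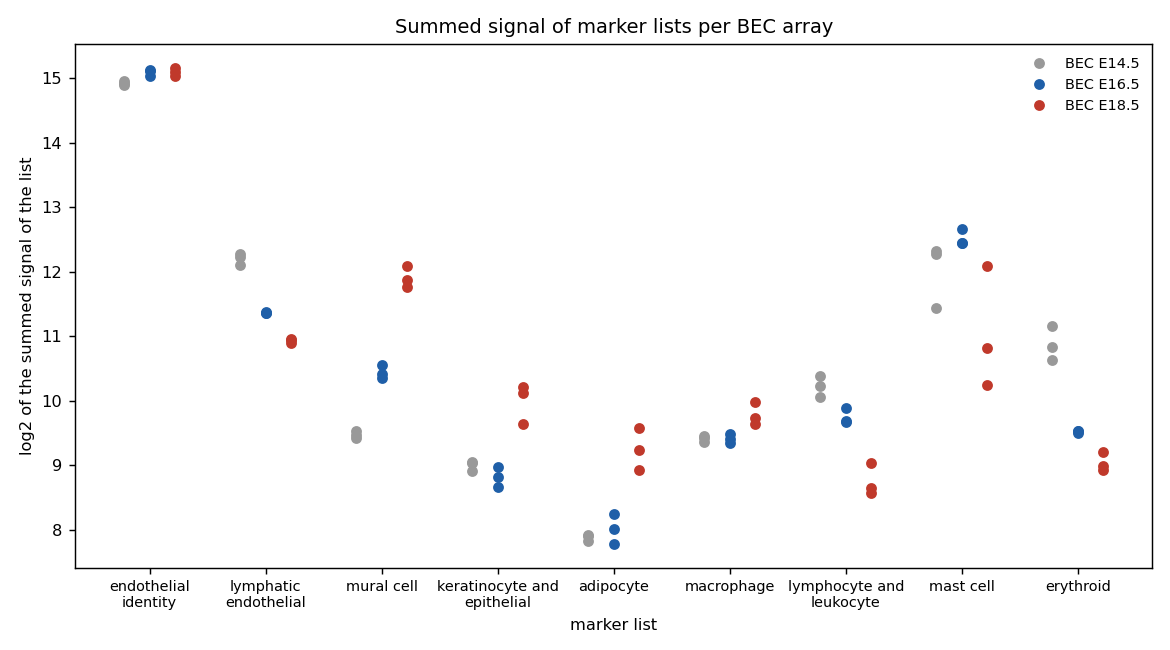
Log2 of the summed signal of 9 marker lists on each BEC array (points), coloured by age. Endothelial points at E16.5 and E18.5 overlap near 15, mural, keratinocyte and adipocyte points are higher at E18.5 (mural 11.77 to 12.09 against 10.35 to 10.55), and lymphatic, leukocyte, mast cell and erythroid points are lower.

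LEC were compared over the same days to see where the late step of BEC differs. In LEC 2011 genes (10.1%) were called higher and 2634 (13.2%) lower. Of the BEC calls 2262 were called in LEC in the same direction and 43 in the opposite direction, and of the 389 BEC genes that changed by at least 1, 294 were called in LEC in the same direction. The test of the difference between the changes called 351 genes (1.76%), 207 of them higher in BEC (1.04%) and 144 lower (0.722%). The count was 179 to 456 when any 1 of the 12 arrays was left out, and the lowest was without the first LEC E16.5 array. Among the 389 genes the difference was called for 57.

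The difference was largest for Il6 among the genes examined singly. It rose by 3.76 in BEC and fell by 1.26 in LEC, where it went from 8.56 to 7.29, a difference of 5.02 ± 0.52 (adjusted p = 0.000638). The LEC arrays carried larger leukocyte signals than the BEC arrays. At E16.5 the summed mast cell signal was 14.60 to 14.66 in LEC and 12.44 to 12.67 in BEC. At E18.5 it was 14.24 to 14.61 and 10.25 to 12.09. The macrophage sum in LEC was 11.50 to 12.57 and then 12.84 to 13.51, against 9.35 to 9.48 and 9.64 to 9.98 in BEC. The part of these cells in the Il6 difference was not tested. Pdgfrb rose by 0.99 in BEC and fell by 1.68 in LEC, a difference of 2.67 ± 0.18 (adjusted p = 9.04e-06). Mctp1, a calcium-binding membrane protein picked after its values were seen, rose by 2.36 in BEC and changed by 0.04 in LEC (2.32 ± 0.25, adjusted p = 0.000704). Myh11 and Agtr1a differed by 1.74 ± 0.29 and 1.81 ± 0.33. Igfbp2 fell further in BEC, by a difference of -1.25 ± 0.18. Pdgfrb, Myh11, Agtr1a and Igfbp2 were also picked for this comparison after their values were seen.

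Within the gene groups, the difference was called for 3 of 24 interferon genes and 3 of 12 mural markers, all higher in BEC. It was also called for 6 of 24 genes of sterol and fatty acid synthesis, each with the more negative change in BEC. Their median change was -0.27 in BEC and 0.01 in LEC. It was called for 0 of 27 replication genes, 0 of 31 cell cycle genes and 0 of 28 respiratory chain genes, whose LEC medians were -0.63, -0.48 and -0.70. Beside Il6, the angiopoietin gene Angpt2 rose in BEC by 0.86 and fell in LEC by 0.46 (difference 1.32 ± 0.19, adjusted p = 0.00383). Angpt2 was also picked for this comparison after its values were seen.

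The step from E14.5 to E16.5, which shares the E16.5 arrays, had 888 genes (4.45%) higher and 766 (3.84%) lower in a fit of the 9 BEC arrays. Some genes moved at both steps. Sele went from 6.17 at E14.5 to 8.71 and 11.65, Osmr from 5.35 to 7.11 and 8.69, Cd300lg from 6.78 to 8.24 and 9.80, and Eln from 5.99 to 7.45 and 9.40. Each of these was called at both steps. Il6 averaged 5.01, 5.45 and 9.20, Ifit1 3.70, 3.70 and 7.31, and Myh11 5.37, 5.66 and 8.04 at the 3 ages in order, and none of these 3 was called at the earlier step. Capillary genes had an earlier median change of 0.80 and a later one of 0.32, and interferon genes 0.17 and 1.42.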

How the data were processed

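Total RNA of 18 samples was hybridised to 1 array each. The deposited values are log2 signals per transcript cluster, made by the authors with RMA in oligo 1.54.1, per the submitters' processing notes. Whether all 18 arrays were normalized together is not given in the sources used here. Of 35556 transcript clusters 21789 had 1 gene symbol, and the cluster with the highest mean stood for each of 19938 genes. The main fit was limma 3.58.1 (lmFit and eBayes, R 4.3.3) on the 6 arrays, unblocked, with Benjamini-Hochberg adjustment at 0.05. Differences between cell types were interaction terms over 12 arrays. The scripts were tested on simulated data. The dim bound was the 95th percentile of 1190 receptor genes, and 14282 genes exceeded it. The number of arrays limits the precision.

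Genes were named by rule, as the 12 largest rises and the 12 largest falls among called genes, or as members of 59 gene lists, apart from those said to be picked after their values were seen. The members and lists were chosen with earlier results of these data known. Alternatives were other scalings, fits, filters and rows per gene, a replicate block and leaving out each array. Replicate numbers did not pair the ages: deviations of same-numbered E16.5 and E18.5 arrays correlated at -0.03, -0.08 and -0.07.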

Additional observations from a re-analysis of the deposited data

Results flagged for a closer look

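The changes below differed between BEC and LEC by limma's interaction term over 12 arrays, and each value is the BEC change minus the LEC change on the log2 scale. The change was more positive in BEC for Il6 (5.02), Pdgfrb (2.67), Mctp1 (2.32), Cxcl10 (1.98), Il3 (1.91), Agtr1a (1.81), Myh11 (1.74), Psmb8 (1.56), Meg3 (1.36), Angpt2 (1.32), Nr4a1 (1.28), Lipe (1.18) and Psmb9 (0.90). It was more negative in BEC for Hbb-y (-1.97), Gpr65 (-1.97), Mmrn1 (-1.67), Rgs18 (-1.63), Igfbp2 (-1.25) and Crmp1 (-1.01). Il3 fell in both cell types, from 5.65 to 3.55 in BEC, below the dim bound of 4.62, and from 8.79 to 4.78 in LEC, so the size of its difference is uncertain. Gpr65, Rgs18 and Hbb-y also averaged below that bound in BEC at E18.5. The summed leukocyte signals were larger in LEC, and their part in the differences of Il6, Il3, Gpr65 and Rgs18 was not tested. The call of Cxcl10 was lost without the second BEC E18.5 array and without the first LEC E16.5 array. The calls of Rgs18 and Hbb-y were lost without several single arrays. Pdgfrb, Myh11, Agtr1a, Mctp1, Igfbp2, Angpt2, Lipe, Meg3, Mmrn1, Nr4a1, Psmb8 and Psmb9 were picked after their values were seen.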

How the results depend on the processing

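The 4714 calls were 2921 after quantile normalization, 3016 after cyclic loess, which was chosen after seeing the data, and between 2359 and 3999 when 1 array was left out. The 2268 higher calls were 1318 at a common median, 1437 after quantile normalization, 1474 after cyclic loess and 1069 to 1900 without 1 array. The 2446 lower calls were 1484, 1542 and 1290 to 2200 after quantile normalization, cyclic loess and without 1 array. The 351 differences between BEC and LEC were 728 with all 18 arrays in the fit, 596 with an intensity trend and 179 to 456 without 1 array. The count of changes of at least 1 was 389, and 347 to 457 over all alternatives. The gap in interquartile range was -0.35 to -0.27 without 1 array. Atp5c1, Col4a1 and Ldha turned from lower to 0.40, 0.0325 and 0.37 at a common interquartile range. The cause was not tested for any of these.

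With the replicate block, 3962 genes were called for the ages and 253 for the difference between cell types. Same-numbered BEC and LEC arrays, described as matching in the study's design, correlated in their deviations at -0.04, 0.10 and 0.10 at E16.5 and at 0.07, -0.11 and -0.02 at E18.5, so not every pair passed 0.1 and the numbers were not taken as pairs. Of 295 called named genes, 58 to 61 lost the call without an E16.5 array, 29 to 43 without an E18.5 array, 39 at a common interquartile range, where 1 more reversed, 36 after cyclic loess, 32 after quantile normalization, 25 at a common median and 25 with the block.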

Other observations

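The counts below stand against 11.4% of all genes that rose and 12.3% that fell. Of 23 ion channel and gap junction genes 9 rose and 4 fell in BEC, with 6 rises without the first or the third E16.5 array. Of 17 coagulation and fibrinolysis genes 4 rose and 0 fell, with a median of 0.13, and 8 were higher at a common interquartile range. Of 26 HOX genes, which keep the positional identity of cells, 5 rose and 0 fell. Among all genes with a mean signal between 4 and 5, 16.8% rose. The HOX rises were 2 without the third E16.5 array and 3 after quantile normalization or cyclic loess. In LEC 0 were called, and 8 of the 26 averaged at or below the dim bound in BEC at E16.5. Of 19 stress chaperone genes 4 fell and 1 rose, with 1 fall without the first or the third E16.5 array and 1 after each scaling other than a common median. Of 22 hypoxia response genes 3 rose and 0 fell, a share of rises near that over all genes. There were 2 to 6 rises without 1 array and 8 at a common interquartile range. Of 8 GIMAP GTPases, which are expressed in endothelium and lymphocytes, 0 were called in either direction.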
